A study of Mus musculus with 9 samples.

Results

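The troponin complex is described here in mouse muscle cells and muscle. Its 8 genes were Tnni1, Tnni2 and Tnni3 (troponin I), Tnnt1, Tnnt2 and Tnnt3 (troponin T) and Tnnc1 and Tnnc2 (troponin C), chosen by name as the fast, slow and cardiac subunits and matched to the Ensembl identifiers of the count files. All 8 are among the 46078 genes listed for cultured cells and the 38293 listed for muscle. RNA was sequenced from gastrocnemius muscle (GAS, 3 libraries), primary myoblasts (MB, 2), MB given 10 mM sodium-L-lactate in the medium (2) and myotubes (MT, 2), which are MB kept in differentiation medium for 3 days. Control MB received the same amount of PBS, the solvent of the lactate. The labels give C57BL/6 as the strain of all samples, and no altered allele is named. Per the study's methods, GAS came from female C57Bl6/J mice aged 8 to 12 weeks. The labels number biological replicates but do not say whether the cultures came from separate animals, so p-values measure the spread between these libraries. The series asks how gene expression changes between MB and MT and whether lactate stimulates myogenic differentiation.

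Troponin sits on the thin filament of striated muscle and makes contraction depend on calcium. Troponin C binds calcium, troponin I holds back the interaction of actin and myosin, and troponin T anchors the complex to tropomyosin. Separate genes encode the subunits of slow fibers (Tnni1, Tnnt1), fast fibers (Tnni2, Tnnt3, Tnnc2) and heart (Tnni3, Tnnt2), while Tnnc1 serves slow fibers and heart alike. Embryonic skeletal muscle and young myotubes are known to use slow and cardiac subunits before fast ones prevail, and the gastrocnemius of the mouse is mostly a fast muscle.

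Between 19307793 and 19941574 reads were counted on genes in GAS and between 5198247 and 10839516 in the cultured cells, so that 3 counts correspond to 0.155 CPM or less in GAS and to between 0.277 and 0.577 CPM in culture. For GAS, poly(A) RNA was used for library preparation, and for cultured cells Smart-seq2, a full-length cDNA method for small amounts of RNA. Levels in GAS are therefore set beside those in culture without a test. MT replicate 1 stood apart, with 28599 genes detected against 15548 to 17965 in the other cultured libraries. A ribosomal RNA gene, CT010467.1, took 9.20% of counts in MB replicate 1 and 13.8% in lactate-treated MB replicate 1, against 0.131% to 0.575% in the other cultured libraries. The labels were checked with marker genes. Of the myoblast markers Pax7, Myf5 and Myod1, Pax7 was lower in MT than in MB (log2 fold change -4.11), while all 3 differentiation markers, Myog, Ckm and Myh3, were higher. Fibroblast markers were also higher in MT. The summed level of Col1a1, Dcn and Pdgfra was 14480 and 1803 CPM in the MT libraries and 2.74 and 2.05 CPM in MB, with Dcn at 0 in MB replicate 1. Col1a1 and Dcn passed the test and Pdgfra did not, and among the smooth muscle markers Tagln was higher (log2 fold change 4.44) while Myh11 and Cnn1 were too low to be tested. The endothelial, immune, adipocyte and Schwann cell markers were not tested and summed, list by list, to at most 11.2 CPM in any cultured library. These sums were highest in MT replicate 1. The immune sum was 11.2 CPM there and 0.979 CPM in MT replicate 2, and the endothelial sum 10.2 and 0 CPM. The Schwann cell sum was 3.11 and 0.856 CPM and the adipocyte sum 0.637 and 0 CPM. In MB replicates 1 and 2 the immune sum was 1.31 and 0.684 CPM and the endothelial sum 0.261 and 0.228 CPM. The part of other cells in the differences between MT and MB was not tested. In these bulk samples, more muscle cells in a culture and more RNA per cell cannot be told apart.

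The troponin genes lie in pairs on the mm10 genome, a position that the choice of genes did not use. Tnni1 (chromosome 1, 135779434 to 135810989, plus strand) lies 25364 bp before Tnnt2 (135836354 to 135852260, plus strand), with Lad1 as the single coding gene between them. Tnni2 (chromosome 7, 142441808 to 142444410, plus strand) and Tnnt3 (142498836 to 142516009, plus strand) are 54425 bp apart with Lsp1 between them. Tnnt1 (chromosome 7, 4504570 to 4516382, minus strand) and Tnni3 (4518305 to 4524229, minus strand) are 1922 bp apart with no coding gene between them. The troponin C genes are not paired. Tnnc1 (chromosome 14, 31208312 to 31211729, plus strand) lies inside Nisch, a gene of the opposite strand, without sharing exonic bases. Tnnc2 (chromosome 2, 164777161 to 164779967, minus strand) runs into the end of Ube2c on the plus strand.

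Members of a class are similar in sequence, so whether reads can be told apart matters for every share given here. In the longest coding sequences of the GENCODE M21 annotation, 71.3% of aligned bases were identical between Tnni1 and Tnni2, 71.3% between Tnnt2 and Tnnt3, and 70.4% between Tnnc1 and Tnnc2. Over all 7 pairs within a class the range was 68.5% to 71.3%, and the longest run of identical coding bases was 22. No stretch of 50 bases occurred in the chosen transcripts of both genes of a pair. The longest identical coding run of each class is shown, each between a fast gene and a slow or cardiac gene. How well reads can be placed there was not tested. Capitals mark the identical run and the 20 coding bases on each side are in lower case. In Tnni1-205 the stretch lies in exon 7 (chr1:135808715-135808776) and in Tnni2-201 also in exon 7 (chr7:142443988-142444049), both on the plus strand.
Tnni1: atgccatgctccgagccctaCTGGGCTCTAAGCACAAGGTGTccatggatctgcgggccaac
Tnni2: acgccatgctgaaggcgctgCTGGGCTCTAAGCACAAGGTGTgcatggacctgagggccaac
For troponin T, the stretch with its flanks begins in exon 9 and ends in exon 10 in Tnnt2-205 (chr1:135847744-135848008, plus strand). In Tnnt3-218 it begins in exon 11 and ends in exon 12 (chr7:142510681-142511284, plus strand). Introns are left out.
Tnnt2: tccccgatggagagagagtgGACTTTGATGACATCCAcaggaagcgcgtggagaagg
Tnnt3: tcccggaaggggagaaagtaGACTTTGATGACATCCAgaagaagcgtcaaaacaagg
For troponin C, the stretch with its flanks begins in exon 2 and ends in exon 3 in Tnnc1-202 (chr14:31209812-31210098, plus strand). The same exons hold it in Tnnc2-201 (chr2:164778049-164778197, minus strand), where the genomic interval falls within the Ube2c gene.
Tnnc1: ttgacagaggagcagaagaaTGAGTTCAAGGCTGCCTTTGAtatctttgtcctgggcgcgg
Tnnc2: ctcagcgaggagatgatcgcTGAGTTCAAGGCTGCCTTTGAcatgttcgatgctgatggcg
A read of 50 bases or more could thus not match the chosen transcripts of both genes of a pair exactly.

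A different limit holds for Tnnc2. Of its 800 exonic bases, 592 (74.0%) are also exonic in Ube2c, which encodes a ubiquitin-conjugating enzyme of mitosis. Whether the counting used the strand of the reads is not given in the sources used here. Without strand, reads from these bases belong to either gene, and the levels of Tnnc2 and Ube2c are uncertain. Tnni3 shares 86 exonic bases (4.17%) with Dnaaf3 on its own strand. The other 6 genes share none.

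In troponin I, the slow and the fast gene were both measured in every cultured library and the cardiac gene was near 0. RPKM is used for levels, which is CPM after TMM normalization divided by the exonic length in kilobases. Tnni1, the slow troponin I, had an RPKM of 4.47 and 1.87 in MB, 3.24 and 2.88 in lactate-treated MB, 541 and 722 in MT, and 11.1, 12.3 and 6.58 in GAS. Its MT libraries were the highest of all 9. Tnni2, the fast troponin I, had 3.84 and 1.52 in MB, 4.14 and 0.568 in lactate-treated MB, 205 and 657 in MT, and 4300, 4459 and 3485 in GAS. GAS was highest for this gene and did not overlap with any cultured library. Tnni3, the cardiac troponin I, had no counts in the 4 MB libraries, 22 and 3 in MT and 5, 2 and 5 in GAS. For MB replicates 1 and 2, a count of 0 allows up to 0.334 and 0.386 CPM before normalization, for counting error only. MT replicate 1 was thus the highest of the 9 libraries, still at an RPKM of 0.850, and no fold change is given for this gene.

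Troponin T was the class with 3 measurable genes in culture. Tnnt1, the slow gene, had an RPKM of 13.2 and 5.64 in MB, 14.2 and 6.78 in lactate-treated MB, 274 and 567 in MT, and 38.8, 47.7 and 31.4 in GAS. Tnnt2, the cardiac gene, had 7.87 and 9.61 in MB, 8.81 and 15.9 in lactate-treated MB, 321 and 344 in MT, and 0.288, 0.170 and 0.281 in GAS. It was the member with the widest distance between cultured cells and GAS in the downward direction, with 26 to 44 counts in GAS against 21810 and 31218 in MT, at a larger library size in GAS. Tnnt3, the fast gene, had 10.6 and 4.90 in MB, 9.95 and 7.94 in lactate-treated MB, 710 and 1323 in MT, and 15125, 13699 and 13806 in GAS. In GAS it took between 421843 and 471826 counts per library.

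Troponin C was split almost completely between its genes. Tnnc1, the slow and cardiac gene, had an RPKM of 32.4 and 14.6 in MB, 33.8 and 19.3 in lactate-treated MB, 1455 and 3508 in MT, and 58.1, 61.3 and 41.5 in GAS. The GAS libraries lay above all 4 MB libraries and below both MT libraries. Tnnc2, the fast gene, had no counts in MB, 0 and 2 in lactate-treated MB, 623 and 408 in MT and 210823, 193731 and 181356 in GAS, which gives an RPKM of 62.1 and 62.4 in MT and of 13373, 12289 and 11745 in GAS. Its position over Ube2c bears on these values.

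**Figure D1:**
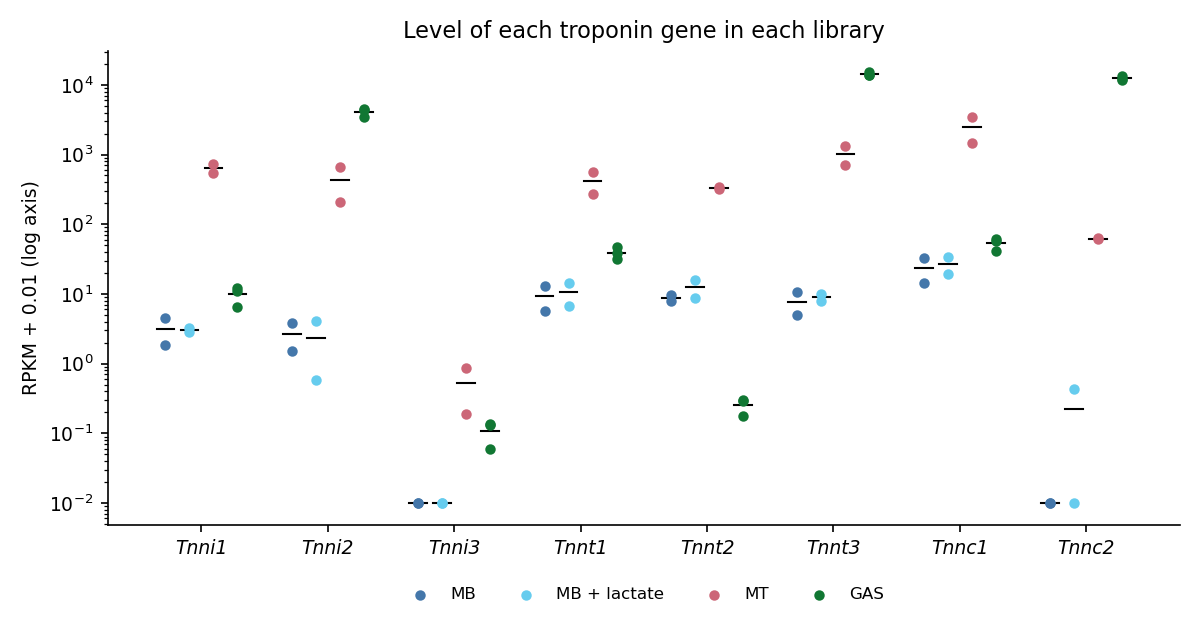
RPKM of each troponin gene in each library on a log axis, with 0.01 added so that libraries without counts can be drawn. Points are libraries (2 of MB, of MB with lactate and of MT, 3 of GAS) and bars are group means. Tnni2, Tnnt3 and Tnnc2 are highest in GAS, and Tnni1, Tnnt1, Tnnt2 and Tnnc1 in MT.

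The order of the levels was read within each group, calling neighbors apart when their libraries did not overlap. In GAS the order was Tnnt3, Tnnc2, Tnni2, Tnnc1, Tnnt1, Tnni1, Tnnt2 and Tnni3, and of these neighbors Tnnc1 and Tnnt1 alone overlapped. In MT, Tnnc1 came first with a mean RPKM of 2482 ± 1452 (SD, n = 2), above Tnnt3 at 1016 ± 433 without overlap. Tnni1, Tnni2, Tnnt1 and Tnnt2 followed at mean RPKM of 631, 431, 421 and 333, each overlapping with its neighbor, and Tnnt3 overlapped with Tnni1. Tnnc2 at 62.2 and Tnni3 at 0.514 were below these and apart from each other. In MB, Tnnc1 led at 23.5 ± 12.6, and Tnnt1, Tnnt2 and Tnnt3 followed at 9.40, 8.74 and 7.73, each overlapping with its neighbor. Tnni1 and Tnni2 came next at 3.17 and 2.68, also overlapping. These orders depend on the gene length used. With the longest coding transcript as length, Tnnt2 was first in MB at 56.5 ± 7.92 and second in MT at 2148 ± 106.

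MT and MB were compared to see which genes change with differentiation. Among 12921 genes tested, 1425 (11.0%) were called higher in MT and 887 (6.86%) lower, at an adjusted p under 0.05 and a log2 fold change beyond 0.5. These totals moved with single libraries, with 4118 higher without MT replicate 2, 270 lower without MT replicate 1 and 1570 lower without MB replicate 2. Of the 8 troponin genes, 7 passed the filter on low counts and all 7 were called higher, whatever fiber type they belong to. Tnni3 did not pass that filter and was not tested. Both MT libraries lay above both MB libraries for each of the 7.

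In troponin I, the estimates of the slow and the fast gene lay within each other's intervals. Tnni1 had a log2 fold change of 7.63 (SE 0.81, edgeR adjusted p = 2.3e-04) and Tnni2 of 7.32 (SE 0.83, adjusted p = 3.3e-04). Their intervals at 95% ran from 5.85 to 9.41 and from 5.47 to 9.16. In troponin T the fast gene Tnnt3 had 7.03 (SE 0.77, adjusted p = 2.7e-04), the slow gene Tnnt1 5.47 (SE 0.70, adjusted p = 6.9e-04) and the cardiac gene Tnnt2 5.24 (SE 0.66, adjusted p = 6.4e-04). In troponin C, Tnnc1 had 6.71 (SE 0.84, adjusted p = 6.1e-04). For Tnnc2, which was without counts in both MB libraries, the mean level in MT was at least 127-fold higher than 3 counts in the MB library with the higher limit. Its fitted log2 fold change of 11.85 depends on how a count of 0 is handled and is no bound, and its adjusted p was 1.4e-04. The median log2 fold change of the 7 genes was 7.03, or 6.99 with Tnnc2 at its bound, beside 0.07 over all tested genes. By fold change, the 6 genes with counts in MB held ranks 233 to 526 of the tested genes.

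Single libraries moved the size of these changes but no call. Without MT replicate 2, the log2 fold change was 6.07 for Tnni2, 5.77 for Tnnc1, 4.68 for Tnnt1 and 6.33 for Tnnt3. Without MB replicate 1 it was 8.26 for Tnni1, 8.02 for Tnni2, 6.10 for Tnnt1 and 7.29 for Tnnc1, and without MT replicate 1 it was 7.94 for Tnni2. All 7 genes stayed called in each of these fits.

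**Figure D2:**
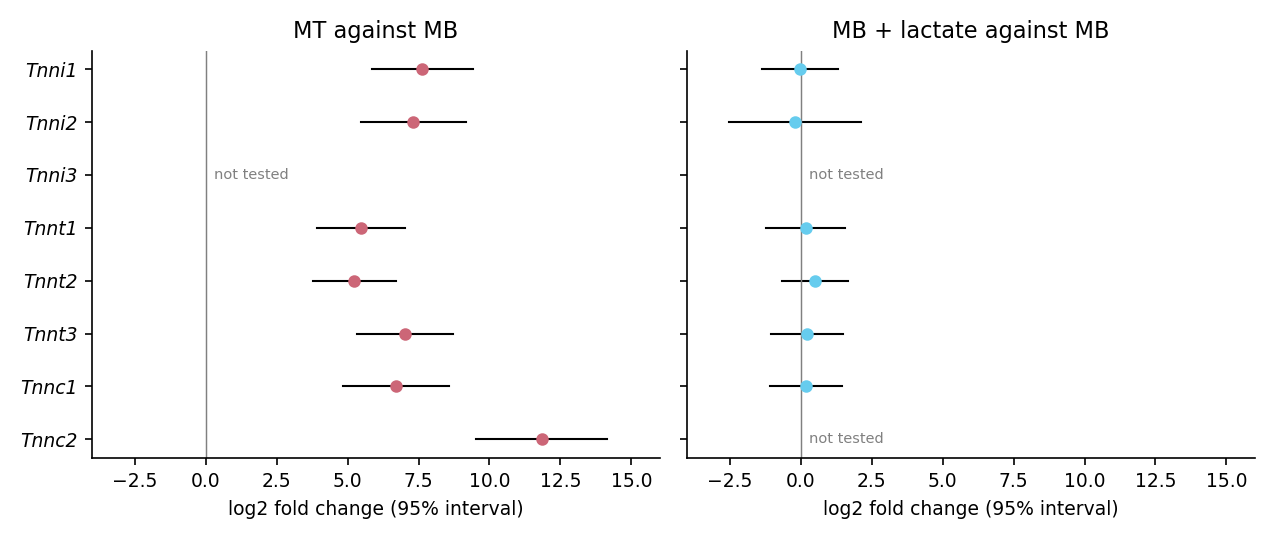
Log2 fold changes of the troponin genes from edgeR with 95% intervals, for MT against MB and for lactate-treated against control MB, each with 2 libraries a group. In MT all tested genes lie above 5 and their intervals exclude 0, while with lactate all intervals include 0. The value of Tnnc2 depends on how its count of 0 in MB is handled. Genes marked as not tested had too few reads.

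Ratios of reads between genes of one class were used to ask whether the balance shifted, since a change in such a ratio does not depend on gene length. The ratio of Tnnt3 to Tnnt1 reads was 0.577 and 0.624 in MB and 1.86 and 1.68 in MT, a 2.94-fold higher ratio in MT. The ratio of Tnnt3 to Tnnt2 reads was 0.274 and 0.104 in MB and 0.452 and 0.785 in MT, 3.52-fold higher. Neither pair of groups overlapped, and both ratios were higher in both MT libraries. With 2 libraries against 2, the exact permutation test gave p = 0.333 for both, two-sided, which is the smallest it can give here. The ratio of Tnni2 to Tnni1 reads was 0.358 and 0.339 in MB and 0.158 and 0.379 in MT, and the groups overlapped. The ratio of Tnnt1 to Tnnt2 reads overlapped as well, at 0.475 and 0.167 in MB and 0.243 and 0.468 in MT. A shift within these 2 pairs was not detectable.

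Shares within a class were then taken as each gene's part of the summed RPKM of its class. In GAS the fast gene made up nearly all of each class, with Tnni2 at 99.8% ± 0.044 (SD, n = 3) of troponin I, Tnnt3 at 99.7% ± 0.062 of troponin T and Tnnc2 at 99.6% ± 0.072 of troponin C. The slow genes Tnni1, Tnnt1 and Tnnc1 held 0.240%, 0.276% and 0.427%. Tnnt2 held 0.00172% and Tnni3 0.00252%. With the longest coding transcript or raw counts in place of exonic length, the mean share of each fast gene in GAS was 99.4% or more.

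MT had a mixed set. Tnni1 held 72.4% of troponin I in MT replicate 1 and 52.3% in replicate 2, and Tnni2 the rest apart from 0.114% and 0.0129% of Tnni3. In troponin T, Tnnt3 held 54.4% and 59.2%, Tnnt1 21.03% and 25.4%, and Tnnt2 24.6% and 15.4%. Tnnc1 held 95.9% and 98.3% of troponin C. In MB, Tnni1 held 53.8% and 55.1% of troponin I. Tnnt1 held 41.7% and 28.0% of troponin T in MB, Tnnt2 24.9% and 47.7%, and Tnnt3 33.4% and 24.3%. All reads counted for troponin C in MB were of Tnnc1. The troponin C shares of every group carry the limit of Tnnc2, since 592 of its 800 exonic bases are also exonic in Ube2c. How reads in these bases were counted is not known.

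The Tnnt3 share was thus 56.8% ± 3.42 in MT and 28.9% ± 6.45 in MB (n = 2 each) without overlap (exact permutation p = 0.333, two-sided, the smallest possible). Which gene led troponin T in culture depended on length. The annotated exons of Tnnt2 add up to 7752 bp and its longest coding transcript to 1200 bp, while the corresponding lengths are 1583 and 1079 bp for Tnnt3. With the longest coding transcript, Tnnt2 led with 65.4% ± 15.8 in MB and 48.9% ± 10.4 in MT, and Tnnt3 held 12.7% ± 5.42 and 32.3% ± 5.70. The rise of the Tnnt3 share from MB to MT without overlap was present with either length, and so was the near absence of Tnnt2 from GAS. The direction of the Tnni1 share over the Tnni2 share in MT and MB was the same with either length.

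**Figure D3:**
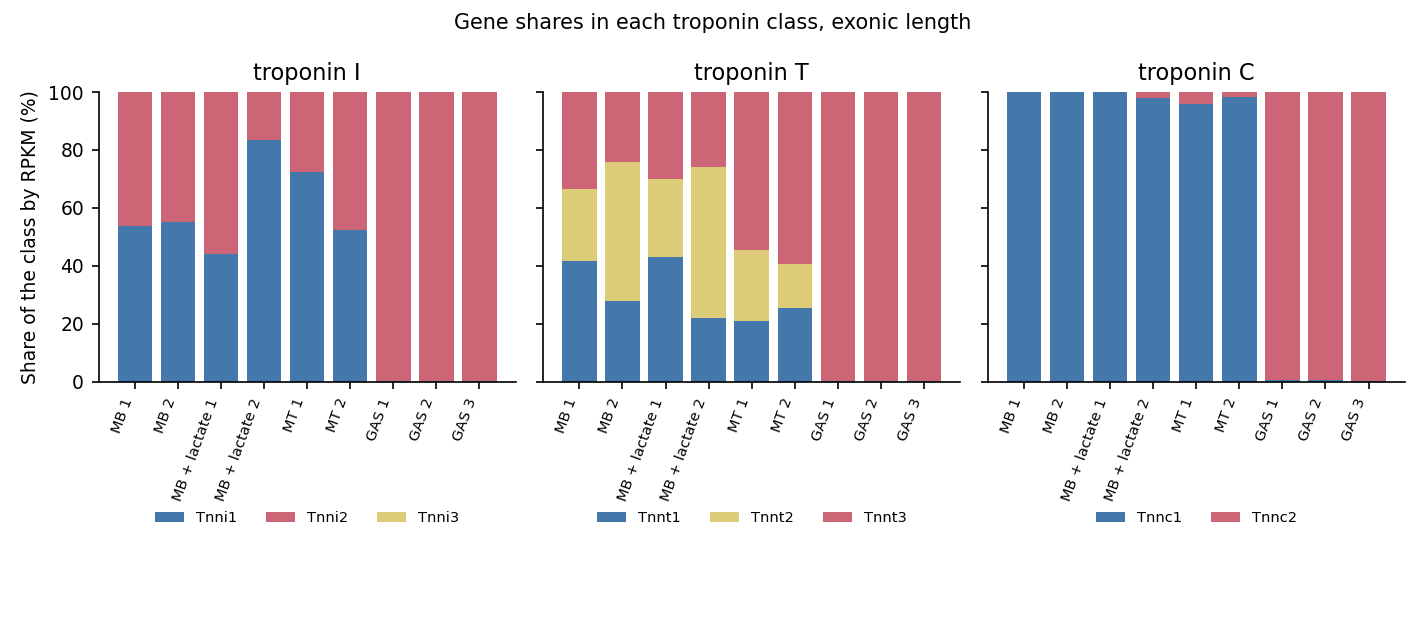
Share of each gene in the summed RPKM of its class, in percent, with 1 bar for each library and exonic length as the length. The 3 GAS bars are filled by the fast gene in each class (99.5% or more), whereas the MT and MB bars are mixed in troponin I and T and nearly all Tnnc1 in troponin C. The level of Tnnc2 is uncertain because its exons overlap those of Ube2c.

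**Figure D4:**
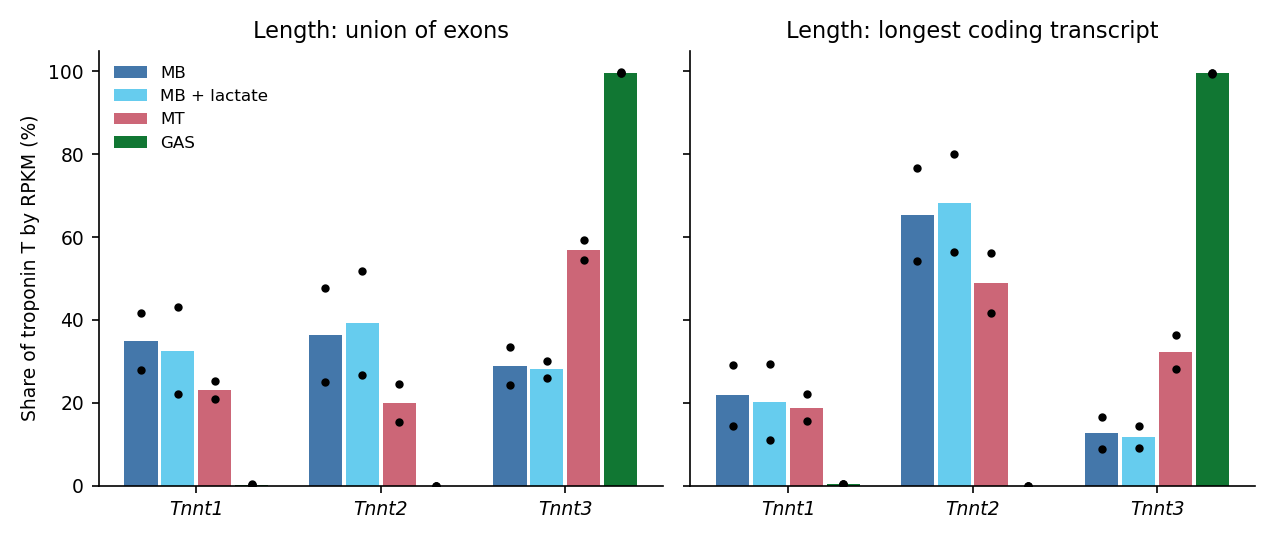
Troponin T shares in percent computed with the exonic length (left) and with the longest coding transcript (right). Bars are group means and points are libraries. Tnnt2 is the largest share in MB and MT on the right but not in MT on the left, and Tnnt3 is above its MB share in MT in both panels.

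The classes were also summed. All 8 genes together took 4.08%, 3.92% and 3.63% of counts in GAS, 0.930% and 1.38% in MT, 0.0138% and 0.0134% in MB and 0.0128% and 0.0207% in lactate-treated MB. In MT, the summed RPKM of troponin T was 1.75 and 1.62 times that of troponin I, and the ratio was 3.805 and 5.94 in MB. Summed troponin C was 2.03 and 2.59 times troponin I in MT and 3.90 and 4.29 times in MB. These ratios were lower in MT than in MB for both pairs of classes, without overlap. In GAS the ratios to troponin I were 3.07 to 3.96 for troponin T and 2.76 to 3.38 for troponin C. With the longest coding transcript the ratio of troponin C to troponin I was 1.04 and 1.45 in MT and 2.18 and 2.38 in MB. Sums of troponin C carry the limit of Tnnc2, whose exons overlap those of Ube2c.

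Tnnc2 and Ube2c were set side by side because of their overlap. Ube2c had 559 and 425 CPM in MB, 685 and 409 CPM in lactate-treated MB, 50.4 and 41.1 CPM in MT, and 425, 402 and 288 CPM in GAS. It was called lower in MT (log2 fold change -3.44, SE 0.49, edgeR adjusted p = 0.0014), while Tnnc2 was called higher. In MB, where Ube2c had between 3726 and 4277 counts, no read was assigned to Tnnc2. By these CPM, scaled within GAS and within culture, Ube2c in GAS stood within the range of the MB libraries or below it. With joint TMM over all 9 libraries its mean RPKM was 229 (SD 44.3) in GAS and 149 (SD 12.1) in MB. The order of GAS and MB for Ube2c thus depends on the scaling. How many of the Ube2c reads in GAS come from Tnnc2, or of reads in the shared bases were left uncounted, was not tested.

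**Figure D5:**
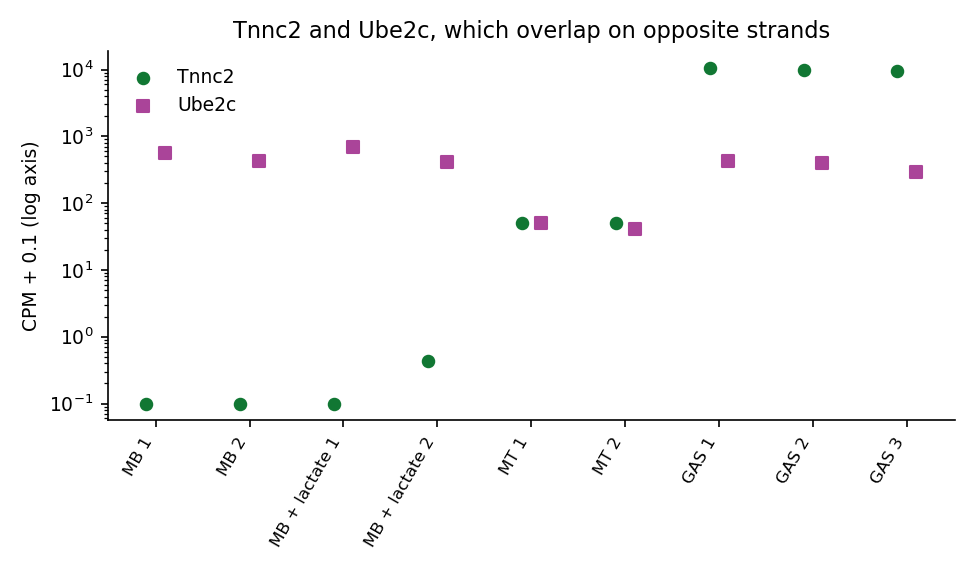
CPM of Tnnc2 (circles) and Ube2c (squares) in each library on a log axis, with 0.1 added. Tnnc2 is at 0 in both MB libraries, at 49.6 and 49.9 CPM in MT and between 9396 and 10698 CPM in GAS, and Ube2c is lowest in MT at 50.4 and 41.1 CPM.

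Lactate-treated and control MB were compared next, to ask whether lactate moves MB towards differentiation. Among 11804 genes tested, none (0.00%) was called at an adjusted p under 0.05, and none (0.00%) at an unadjusted p under 0.01, both with a log2 fold change beyond 0.5. At an unadjusted p under 0.05 edgeR gave 5 genes (0.0424%), and DESeq2 called 0 after adjustment. With the replicate number as a block, 166 genes (1.41%) had an unadjusted p under 0.05, and 0 were called after adjustment. Of the troponin genes 6 were tested and none was called. Tnni3 and Tnnc2 had too few reads.

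The largest estimate was that of Tnnt2, with 467 and 653 counts in control and 386 and 726 in lactate-treated MB at different library sizes. Its log2 fold change was 0.51 (SE 0.48, 95% interval from -0.65 to 1.67, edgeR adjusted p = 0.99997). The other 5 genes lay between -0.20 for Tnni2 and 0.23 for Tnnt3. The interval of Tnnt3 ran from -1.04 to 1.505, that of Tnnc1 from -1.09 to 1.47, that of Tnnt1 from -1.22 to 1.56 and that of Tnni1 from -1.35 to 1.32. These intervals, from the fit without a replicate block, leave room for changes of more than 2-fold in either direction in those 4 genes. They do not reach any of the changes between MT and MB, a comparison that uses the same control libraries. The interval of Tnni2 was the widest, from -2.52 to 2.12, with 44 and 20 counts in control and 35 and 5 in lactate-treated MB. With the replicate number as a block, which assumes that same-numbered libraries belong together, the SE of each tested troponin gene was smaller. The estimates were then 0.45 (SE 0.28) for Tnnt2 and -0.43 (SE 0.52) for Tnni2. They were 0.29 (SE 0.34) for Tnnt3, 0.23 (SE 0.29) for Tnnc1, 0.19 (SE 0.29) for Tnnt1 and 0.06 (SE 0.37) for Tnni1.

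Isoform shares in lactate-treated MB overlapped with those of control MB for all 5 troponin I and T genes with reads. Tnni1 held 44.0% and 83.5% of troponin I, the second value resting on 5 counts of Tnni2. Tnnt3 held 30.2% and 25.9% of troponin T, Tnnt2 26.7% and 51.9%, and Tnnt1 43.1% and 22.1%. In both groups, replicate 2 had the higher Tnnt2 share. The 2 counts of Tnnc2 in replicate 2 gave it 2.16% of troponin C, which is under the limit of 3 counts.

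The partners of troponin on the thin filament were taken from a list of actins, tropomyosins, nebulins, tropomodulins and leiomodins. Of 17 tested, 8 were called higher in MT, none lower, and 9 were not called, with a median log2 fold change of 1.90, beside 11.0% of all tested genes called higher and 6.86% lower. Acta1, the adult skeletal actin, had a mean RPKM of 28.0 in MB, 3909 in MT and 15691 in GAS, and its log2 fold change in MT was 7.11 (adjusted p = 6.6e-04). Acta2, an actin of smooth muscle and of young muscle cells, was higher in MT as well (2.60, adjusted p = 0.026). Actb, a cytoplasmic actin, had -1.77 (adjusted p = 0.18) and Tpm1, a tropomyosin with many isoforms, -0.19 (adjusted p = 0.87).

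Lists of slow, fast and cardiac genes outside troponin gave the fiber type background. Of 7 slow genes tested, 5 were called higher in MT, and of 9 fast genes tested, all 9, with none lower, against the same background of 11.0% higher and 6.86% lower over all genes. The medians of 7.72 and 8.31 fall to 6.61 and 6.66 when genes with 3 or fewer counts in each MB library are set against 3 counts instead. Among slow genes, Casq2, a calcium store protein of slow muscle and heart, had a log2 fold change of 8.65 and a mean RPKM of 304 in MT and 8.54 in GAS. Mybpc1, slow myosin-binding protein C, had 10.15, and Myh7, slow myosin heavy chain, 7.72. Myl2, a slow and cardiac light chain, was without counts in MB and had 10.1 and 66.7 CPM in the MT libraries. Among fast genes, Myh4, the heavy chain of the fastest fibers, was also without counts in MB and was at least 347-fold higher in MT, with a mean RPKM of 22.6 in MT against 10873 in GAS. Atp2a1, the fast calcium pump, had 5.88, Mylpf, a fast light chain, 6.66, and Myl1, another fast light chain, 8.31. Of 11 cardiac genes, 3 could be tested and 1 was called. Myl4, an embryonic and atrial light chain, was higher in MT (7.71, adjusted p = 5.0e-04) with a mean RPKM of 480 in MT and 2.53 in GAS. Tbx20 and Gata4, cardiac transcription factors, had -1.33 and -0.87 and were not called (adjusted p = 0.14 and 0.53). The remaining 8 were not tested. Of these, Myl7, Nppa, Nppb, Nkx2-5 and Hand2 had 5 counts or fewer in MT. Mybpc3, Ryr2 and Myh6 had 131, 108 and 107 counts summed over the 2 MT libraries. Their mean levels in MT were 5.22 CPM (SD 7.38), 4.30 CPM (SD 6.09) and 4.33 CPM (SD 5.60). In each the SD was above the mean, so these reads lay mostly in 1 of the 2 MT libraries. Without MT replicate 2, 4 genes of this list were called.

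The neighbors of the troponin genes were looked at because the pairs lie close together. Syt8, the gene next to Tnni2 at a distance of 1411 bp, was called higher in MT (adjusted p = 0.0083) at a low level, with 140 and 24 counts (11.2 and 2.94 CPM) in MT and 1 and 0 counts in MB, too few in MB for the size of the change. Lsp1, between Tnni2 and Tnnt3, had 0.94 (adjusted p = 0.27) and Mrpl23, on the far side of Tnnt3, 0.03 (adjusted p = 0.97). Beside the pair on chromosome 1, Phlda3 had -0.59 (adjusted p = 0.56) and Pkp1 0.56 (adjusted p = 0.69), and Lad1, between Tnni1 and Tnnt2, had too few reads. Beside Tnnt1 and Tnni3, Ppp1r12c had -0.07 (adjusted p = 0.95) and Dnaaf3 -0.66 (adjusted p = 0.65). Nisch, which surrounds Tnnc1, had -0.10 (adjusted p = 0.92), and Snx21, next to Tnnc2, -0.08 (adjusted p = 0.93). Of the 7 tested neighbors of the paired genes, Syt8 alone was called, beside 11.0% of all tested genes called higher and 6.86% lower, so this count shows nothing particular to the neighbors.

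Promoter sequences were examined because the tested members rose together. The RefSeq promoter table (GRCm38.p6) holds 6 of the 8 genes, without Tnni2 and Tnnt3, and the 250 bases before each start were searched on both strands. The motifs were the E-box CANNTG, bound by myogenic factors such as MyoD, its form CAGCTG, and the MCAT element CATTCCT. The TATA box in the exact form TATAAA, and the MEF2 and CArG motifs by name, were searched as well. Other forms of the TATA box were not searched, so a window without TATAAA may still hold one. CANNTG was found for all 6 genes, but also in 66.2% of all 32851 windows. CAGCTG was found for Tnni1 and Tnnt2 and in 13.0% of all windows, CATTCCT for Tnnt2 and in 4.51%, and TATAAA for Tnnt1 and in 12.4%. MEF2 and CArG had no match in the 6 genes, and 2.92% and 1.47% of all windows held them. CAGCTG is a case of CANNTG, so these matches overlap.

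The promoters of Tnnc1 and Tnnt2 are shown as those whose 250 bases hold no annotated exon, both reading towards the gene on the plus strand. Capitals mark the matches. In Tnnc1 (chr14:31208062-31208311) they are 2 E-boxes at -197 to -192 and at -145 to -140, counted from the RefSeq start.
Tnnc1: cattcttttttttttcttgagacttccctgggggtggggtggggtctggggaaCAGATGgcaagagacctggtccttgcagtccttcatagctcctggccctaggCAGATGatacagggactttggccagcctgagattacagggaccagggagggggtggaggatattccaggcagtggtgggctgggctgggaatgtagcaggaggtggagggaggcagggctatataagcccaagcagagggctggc
In Tnnt2 (chr1:135836084-135836333) they are 4 E-boxes, of which those at -223 to -218 and at -157 to -152 are CAGCTG, and the MCAT element at -27 to -21.
Tnnt2: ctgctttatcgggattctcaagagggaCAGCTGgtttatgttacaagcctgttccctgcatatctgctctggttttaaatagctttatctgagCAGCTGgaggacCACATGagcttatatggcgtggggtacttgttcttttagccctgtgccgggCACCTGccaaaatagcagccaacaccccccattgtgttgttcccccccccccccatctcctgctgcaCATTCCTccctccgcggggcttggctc
A match describes these letters and does not show that a factor was bound.

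Likeness of pattern was described last, as Pearson's r over the 9 libraries on log2(CPM + 1) among 15076 genes in both gene lists. The 9 points fall into 4 groups and GAS differs in protocol, so r mostly reads group means and is given without p. Tnnc2 was most like Myh4 (r = 0.9995), and Tnni2 most like Sgca, a sarcoglycan (0.998), and Pgam2, the muscle form of a glycolytic enzyme (0.997). Cacna1s, the calcium channel of skeletal muscle, was among the 3 genes most like Tnnt3 (0.999). Tnni1 was most like Col13a1 (0.995), Tnnc1 most like Tmem184a (0.997), Tnnt1 most like Cox14 (0.994) and Tnnt2 most like Sike1 (0.994). Among the troponin genes themselves, the fast genes Tnni2 and Tnnt3 had r = 0.994 and Tnnt3 and Tnnc2 0.977, and the slow genes Tnni1 and Tnnc1 had 0.993 and Tnni1 and Tnnt1 0.970. Neighboring genes on the chromosome were alike in 1 of the 2 pairs that could be compared, Tnni2 and Tnnt3 at 0.994, whereas Tnni1 and Tnnt2 had 0.644.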

How the data were processed

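RNA was sequenced from GAS (3 libraries, poly(A) RNA) and from MB, lactate-treated MB and MT (2 each, Smart-seq2). Per the labels and the study's methods, the authors trimmed reads with Trim Galore 0.6.6, aligned them to mm10 with HISAT2 2.2.1, counted them with featureCounts of Subread 2.0.1 and deposited raw counts per gene. The annotation release, strand setting and treatment of reads with several alignments are not given in the sources used here. Depth ranged from 5198247 to 19941574 counts per library, and intervals and floors of 3 counts cover counting error only.

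Symbols, coordinates and lengths came from GENCODE M21. MT and MB, and lactate-treated and control MB, were each compared with edgeR 4.0.16 in R 4.3.3 (filterByExpr, TMM, quasi-likelihood test, Benjamini-Hochberg over all genes tested, absolute log2 fold change over 0.5), a script tested on simulated data with 200 changed genes. CPM and RPKM used TMM within GAS and within cultured libraries. Python 3.11.15 and scipy 1.17.1 gave exact permutation tests. The members and lists were chosen with earlier results of these data known. Of each list, the 4 tested genes with the highest RPKM are named, with any member called lower in MT, the nearest coding neighbors, and genes of highest Pearson r among genes with at least 10 counts in at least 2 libraries. Alternatives were RLE size factors, DESeq2 1.42.0, no filter, at least 10 counts in every library, a replicate block, a single fit of the 6 cultured libraries, each replicate left out, ribosomal RNA left out (CT010467.1), another gene length, raw counts and joint TMM. Chromatin data and other tissues were not analysed here.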

Additional observations from a re-analysis of the deposited data

How the results depend on the processing

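The 7 log2 fold changes of MT against MB kept their direction and call under all alternatives run, except that Tnnc2 could not be tested with at least 10 counts in every library. With the replicate block, which assumes that libraries of the same number belong together, Tnnt3 had a log2 fold change of 7.05 and again 7 troponin genes were called. Deviations of same-numbered libraries had r = -0.127 across genes for MT and MB and 0.705 for lactate-treated and control MB, but with 2 pairs and no label on a shared origin what the numbers mark is not known. Both replicates 1 of lactate-treated and control MB had the higher ribosomal RNA shares (13.8% and 9.20%). The block gave 166 genes at an unadjusted p under 0.05 for lactate against 5 without it, and 13 against 0 at p under 0.01 with a log2 fold change beyond 0.5, with 0 called after adjustment in both fits, and moved no troponin call. With the numbers of MT crossed, chosen after seeing the data, 1192 genes were called higher and 867 lower, and 7 troponin genes. Over all genes, requiring at least 10 counts in every library gave 766 called higher and 678 lower.
For lactate, no troponin gene was called in any setting. The estimate of Tnni1 was -0.02 and turned to 0.0372 with RLE size factors, 0.0372 with DESeq2 and 0.0618 with the replicate block. Leaving out single replicates gave -0.45 to 0.70 for Tnni1, -2.10 to 0.60 for Tnni2 and -0.35 to 0.88 for Tnnt1. It gave -0.0753 to 0.94 for Tnnt2, -0.15 to 0.86 for Tnnt3 and -0.21 to 0.85 for Tnnc1, so each sign changed with some library left out. Between same-numbered libraries, the log2 ratio of CPM was positive in both pairs for Tnnt1 (0.11 and 0.27), Tnnt2 (0.16 and 0.73) and Tnnc1 (0.06 and 0.40). For Tnni1, Tnni2 and Tnnt3 its sign differed between the pairs. The number of cardiac genes called, 1, ranged from 1 to 4 when single replicates were left out.
Shares moved with length by construction. With the longest coding transcript, Tnni1 held 65.7% in MB, and Tnnt3 12.7% in MB, 11.8% in lactate-treated MB and 32.3% in MT, and in GAS Tnni2 held 99.6%, Tnnt3 99.6% and Tnnc2 99.5%. By raw counts, Tnni1 held 74.2% in MB and 79.4% in MT, Tnnt3 11.9%, 11.0% and 30.7% in MB, lactate-treated MB and MT, and in GAS Tnni2 held 99.4%, Tnnt3 99.6% and Tnnc2 99.4%. The RPKM summed over the 8 genes was 55.2 in MB, 64.0 in lactate-treated MB, 5376 in MT and 30863 in GAS. It was 136, 168, 10987 and 43245 with the longest coding transcript, and with joint TMM over all 9 libraries it was 42.8, 48.6, 4388 and 49447, so that levels in GAS relative to culture depend on the scaling. Tnni3 and Tnnc2 had no counts in MB, and Tnni2 had 35 and 5 under lactate.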
